A study of Triticum aestivum with 8 samples.

Results

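Of 37826 probes on a wheat oligonucleotide array, 102 had a mean signal at least 4-fold lower in cold-grown leaf and at least 4-fold higher in cold-grown crown, each against plants kept warm. They were chosen by those 2 differences among the 24596 probes whose signal was well above background on all 8 arrays, a flag the scanner software sets for each spot. The plants were synthetic hexaploid wheat, a bread wheat remade by crossing its ancestral species, and total RNA was labelled with the dye Cy3 and hybridised with 1 sample per array. The leaf groups were leaf at 4 °C, from plants that spent 12 weeks at 4 °C after 3 weeks at 24 °C, and leaf at 24 °C, from plants grown for 3 weeks at 24 °C. The crown groups were crown at 4 °C, after 6 weeks at 4 °C that followed 3 weeks at 24 °C, and crown at 24 °C, after 3 weeks at 24 °C. Each group had 2 arrays, so n = 2 for every group mean below. The plants at 4 °C were also older than those at 24 °C, and the cold lasted longer for leaf than for crown, so that temperature and age cannot be told apart within a tissue, and neither can tissue and length of cold between tissues. The leaf samples are labelled as first leaf and the crown samples as shoots that hold the shoot apical meristem.

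The crown is the base of the shoot, where leaves and tillers arise and where the apical meristem overwinters. A winter cereal survives frost if its crown survives, since new leaves can regrow from it. In the cold, wheat acclimates over days to weeks: it accumulates sugars and protective proteins such as dehydrins and other COR proteins, which CBF/DREB transcription factors induce. Wheat also slows leaf growth and photosynthesis, and over weeks it passes through vernalization, the cold-driven change that lets the meristem flower. Which of the 102 probes read such genes is not known from the files used here. The scanner files name probes by EST contigs and cDNA clones, and the description column of the deposited table holds the same names for all 102. Of these, 0 are a gene symbol or sequence accession, and the probes named Wcor15, cor47, RD29A, RD29B, DREB2A and DREB2B are not among them. The probes are therefore described by name, level and pattern, with no gene role given, and probe sequences and gene positions were not used here.

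Signal is given throughout as a level, the log2 of the processed signal minus the 75th percentile of all non-control probes on that array, so that a level of 0 is the signal that 75% of probes do not exceed. A level difference of 1 is a 2-fold difference. Between 72.1% and 85.6% of all probes were well above background on an array. The free-text description of the crown samples at 24 °C speaks of leaves, against their title, source and tissue entries. Across probes, these arrays correlated at r = 0.915 to 0.919 with crown at 4 °C and at 0.774 to 0.776 with leaf at 24 °C. The day of scanning differed for every group, so that day and group cannot be told apart. Within each tissue the version of the scanner software also differed between 4 °C and 24 °C, and in leaf the scanner did too. Neither can be told apart from temperature there. A probe's level also depends on how well it hybridises, so levels are compared between groups within a probe, and between probes only the differences are.

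The leaf threshold was met by 1658 probes (6.74% of the 24596) and the crown threshold by 820 (3.33%). The 102 that met both are 0.415%. The mirror pattern, at least 4-fold higher in cold leaf and at least 4-fold lower in cold crown, was met by 58 (0.236%). Because these values chose the probes, they are given as a description only. In leaf, the difference of 4 °C minus 24 °C among the 102 had a median of -2.45 and ran from -7.00 to -2.01. In crown, it had a median of 2.77 and ran from 2.00 to 5.0. A difference of 8-fold or more was reached by 24 probes in leaf and by 43 in crown. Both reached 8-fold in 7: wheat0130Contig9299, wheat0130Contig14378, whsh_allContig745, whsh_allContig755, rwh16o19, whsh_allContig1131 and wheat0130Contig13504. The array values at 4 °C and at 24 °C did not overlap for any of the 102 in either tissue, as the choice nearly fixes. The share of all probes without overlap is not given here, so this count shows no trait of the 102. The samples are bulk tissue, so fewer cells of a type and less RNA per cell cannot be told apart in any of these differences.

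**Figure D1:**
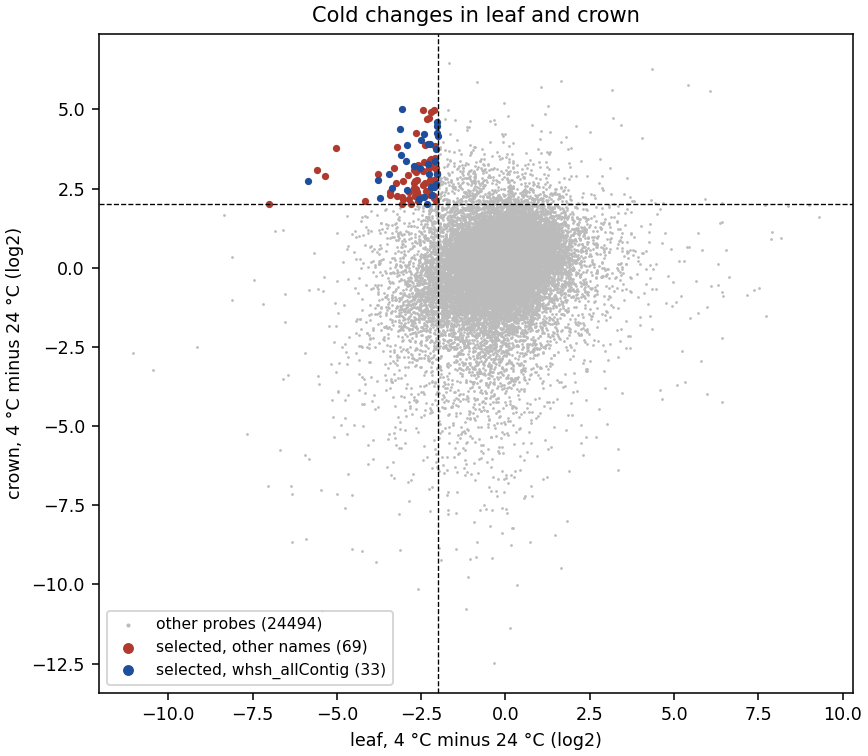
Difference of 4 °C minus 24 °C in leaf (x axis, log2) against that in crown (y axis, log2) for 24596 probes well above background on all 8 arrays. Each point is a probe, the dashed lines are the thresholds of the choice, and the 102 chosen probes lie in the upper left, 33 of them with names starting whsh_allContig (blue) and 69 with other names (red).

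The thresholds cut through a continuous spread of values. Just inside the leaf threshold lay whsh_allContig1249 at -2.01, wheat0130Contig7761 at -2.02 and whsh_allContig261 at -2.02. Just outside it, with a crown difference past its own threshold, lay wheat0130Contig1714 at -1.99997, whsh_allContig194 at -1.9987 and wheat0130Contig9095 at -1.98. Just inside the crown threshold lay wheat0130Contig15831 and wheat0130Contig13699, both at 2.00, and wheat0130Contig16112 at 2.01. Just outside lay rwhfl6d05 at 1.96, and wheat0130Contig14774 and whyd19b03, both at 1.95. The probe with the most negative leaf difference of the set, wheat0130Contig16112, is thus also among those that only just met the crown threshold.

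The 10 probes with the widest gap between their crown and leaf differences took several shapes. wheat0130Contig16112 was the probe with the most negative leaf difference. Its level was -5.67 and -5.73 in leaf at 4 °C, against 1.46 and 1.14 in leaf at 24 °C, a mean 128-fold lower. It was 5.69 and 5.71 in crown at 4 °C, against 3.69 and 3.69 in crown at 24 °C, a mean 4.03-fold higher. The warm leaf value lay below both crown groups, and the cold leaf value far below all others.

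In wheat0130Contig9299, wheat0130Contig14378, whsh_allContig590 and wheat0130Contig6740 the warm leaf was highest and the warm crown lowest. wheat0130Contig9299 had levels of -1.57 and -1.68 in leaf at 4 °C, against 3.45 and 3.38 in leaf at 24 °C, and of 1.11 and 1.14 in crown at 4 °C, against -2.64 and -2.67 in crown at 24 °C. The cold leaf and the cold crown of this probe lay between the warm groups, and its mean differed 32.9-fold in leaf and 13.7-fold in crown. wheat0130Contig14378 had levels of 1.00 and 1.05 in leaf at 4 °C, against 6.63 and 6.63 in leaf at 24 °C, and of -1.54 and -1.61 in crown at 4 °C, against -4.57 and -4.75 in crown at 24 °C. Here both leaf groups lay above both crown groups, with a mean 48.6-fold lower in cold leaf and 8.49-fold higher in cold crown. whsh_allContig590 had levels of -3.30 and -3.38 in leaf at 4 °C, against 2.56 and 2.47 in leaf at 24 °C, and of -3.03 and -3.06 in crown at 4 °C, against -5.67 and -5.88 in crown at 24 °C. Its cold leaf and cold crown arrays differed by less than 1 log2 unit, while the warm tissues stood far apart. wheat0130Contig6740 was similar, with -1.30 and -1.34 in leaf at 4 °C, against 4.09 and 3.96 in leaf at 24 °C, and -1.21 and -1.22 in crown at 4 °C, against -4.16 and -4.09 in crown at 24 °C. Its mean was 40.6-fold lower in cold leaf and 7.51-fold higher in cold crown.

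In the other 5 of the 10, the crown difference was the greater. whsh_allContig745 had levels of 0.24 and 0.28 in leaf at 4 °C, against 3.39 and 3.27 in leaf at 24 °C, and of -0.59 and -0.68 in crown at 4 °C, against -5.56 and -5.71 in crown at 24 °C. Its crown mean was 32.1-fold higher in the cold and its leaf mean 8.38-fold lower. whsh_allContig755 had levels of -4.03 and -4.14 in leaf at 4 °C, against -0.95 and -0.98 in leaf at 24 °C, and of 3.61 and 3.60 in crown at 4 °C, against -0.76 and -0.76 in crown at 24 °C. The tissues of this probe were close together in warm plants and far apart in the cold. whfl_allContig910 had levels of -2.00 and -2.15 in leaf at 4 °C, against 0.07 and 0.04 in leaf at 24 °C, and of 0.64 and 0.61 in crown at 4 °C, against -4.34 and -4.39 in crown at 24 °C, a mean 31.7-fold higher in the cold crown.

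The last 2 of the 10, whfl_allContig2020 and wheat0130Contig7287, each had a cold crown close to the warm leaf. whfl_allContig2020 had 1.15 and 1.06 in leaf at 4 °C, against 3.57 and 3.54 in leaf at 24 °C, and 3.57 and 3.48 in crown at 4 °C, against -1.47 and -1.43 in crown at 24 °C. wheat0130Contig7287 had 1.16 and 1.02 in leaf at 4 °C, against 3.30 and 3.29 in leaf at 24 °C, and 3.34 and 3.33 in crown at 4 °C, against -1.56 and -1.59 in crown at 24 °C. In both, the warm crown was the lowest group and the cold leaf lay between. The group means of the 2 probes differed by at most 0.261, and whether they read separate transcripts was not tested. The crown means were 31.5-fold and 30.1-fold higher in the cold.

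Sizes among these 10 moved with the processing. With normexp background correction the crown difference was 1.93 for wheat0130Contig14378 and 0.97 for whsh_allContig590, both short of the threshold, against 3.09 and 2.74 from the processed signal, on the log2 scale. It was 2.05 for wheat0130Contig6740, 3.00 for whsh_allContig745 and 3.97 for whfl_allContig910, against 2.91, 5.0 and 4.99. The leaf difference of wheat0130Contig16112 was then -5.37, against -7.00, and its crown difference was 1.92 when each array was set to its median, just short of the threshold. Scaling to the E1A spike-in controls left whfl_allContig2020 at -1.98 in leaf, whfl_allContig910 at -1.65 and wheat0130Contig7287 at -1.73. That scaling took the median crown difference of the 102 to 3.79 and the median leaf difference to -1.98.

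**Figure D2:**
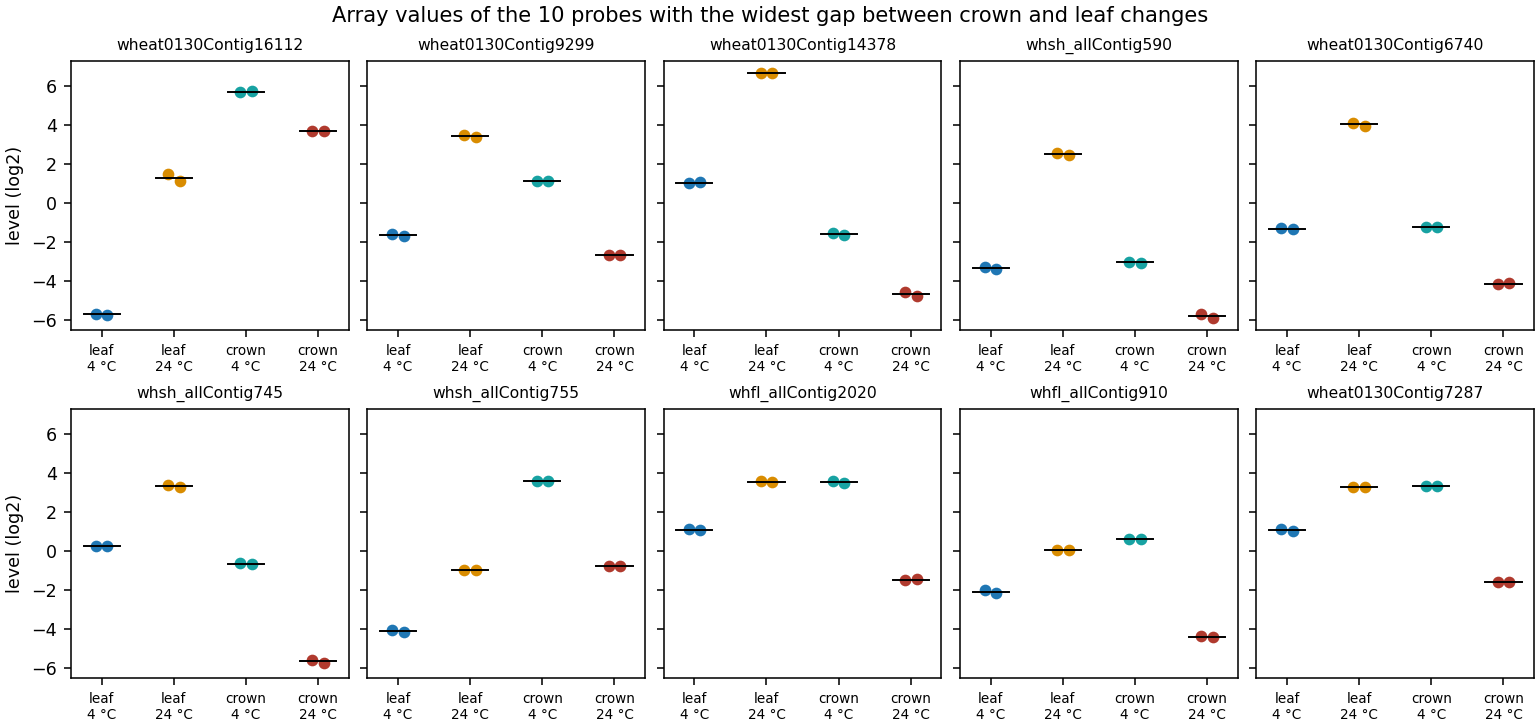
Level (log2 of signal minus the 75th percentile of the array, y axis) of the 10 probes with the widest gap between crown and leaf differences, in the 4 groups. Points are the 2 arrays of a group and bars their mean. wheat0130Contig16112 runs from -5.73 in cold leaf to 5.71 in cold crown, and in whfl_allContig2020 and wheat0130Contig7287 the cold crown stands close to the warm leaf.

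In leaf at 4 °C the lowest, median and highest group means were -7.11, -0.02 and 6.04, against -4.78, 2.84 and 8.15 in leaf at 24 °C. In crown at 4 °C they were -3.24, 0.08 and 5.70, against -5.80, -2.71 and 3.69 in crown at 24 °C. Among the 102, warm leaf had the highest median of the 4 groups and warm crown the lowest, while the cold tissues had similar medians. The choice lets only warm leaf or cold crown have the highest median, and only warm crown or cold leaf the lowest. Over all 24596 probes the medians were -0.95 in leaf at 4 °C and -0.88 in leaf at 24 °C. They were -0.97 in crown at 4 °C and -0.99 in crown at 24 °C.

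The order of the 4 group means took 6 forms, the only ones the choice allows. Shares over all probes are given among the 6540 probes with any of these 6 orders. These orders need only the direction of each cold difference, while the chosen probes also had to pass both thresholds. Large cold differences favour orders in which the tissues interleave, so the choice by itself can move the shares. The shares are therefore given as a description and do not show a trait of the chosen probes beyond the choice. In 46 probes (45.1%, against 31.5% of the 6540) both leaf groups lay above both crown groups, so the order was leaf at 24 °C, leaf at 4 °C, crown at 4 °C and crown at 24 °C. In 31 (30.4%, against 7.83%) the cold crown lay above the cold leaf but below the warm leaf, with the warm crown lowest. In 10 (9.80%, against 8.33%) the cold crown was highest, followed by the warm leaf, the warm crown and the cold leaf. In 9 (8.82%, against 38.6%) both crown groups lay above both leaf groups. In 5 (4.90%, against 7.14%), namely whfl_allContig910, wheat0130Contig7287, whsh_allContig424, wheat0130Contig2797 and whfl_allContig1322, the order was cold crown, warm leaf, cold leaf and warm crown. The remaining probe (0.980%, against 6.64%), MUGEST2003_23lib_Contig21202_838, had the warm leaf highest and the cold leaf lowest, with both crown groups between. Neighbouring means can be close: the cold crown and warm leaf of wheat0130Contig7287 were 3.34 and 3.33 against 3.30 and 3.29.

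The choice lets only warm leaf or cold crown be the highest group, and only warm crown or cold leaf the lowest. Warm leaf was the highest group for 78 of the 102 and cold crown for 24. Warm crown was the lowest group for 82 and cold leaf for 20. At 4 °C the crown mean lay below the leaf mean for 46 probes and above it for 56. At 24 °C it lay below for 93 and above for 9. For 47 probes the crown was below the leaf in warm plants and above it in cold plants. The median crown minus leaf difference was 0.33 at 4 °C, with a range of -7.91 to 11.40, and -5.09 at 24 °C, with a range of -12.62 to 3.36. The choice fixes that the crown minus leaf difference is at least 4 higher at 4 °C than at 24 °C. This gap favours crown below leaf at 24 °C and a change of side in the cold, without fixing for how many probes. Over all 24596 probes the median crown minus leaf difference was 0.05 at 4 °C and -0.02 at 24 °C.

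**Figure D3:**
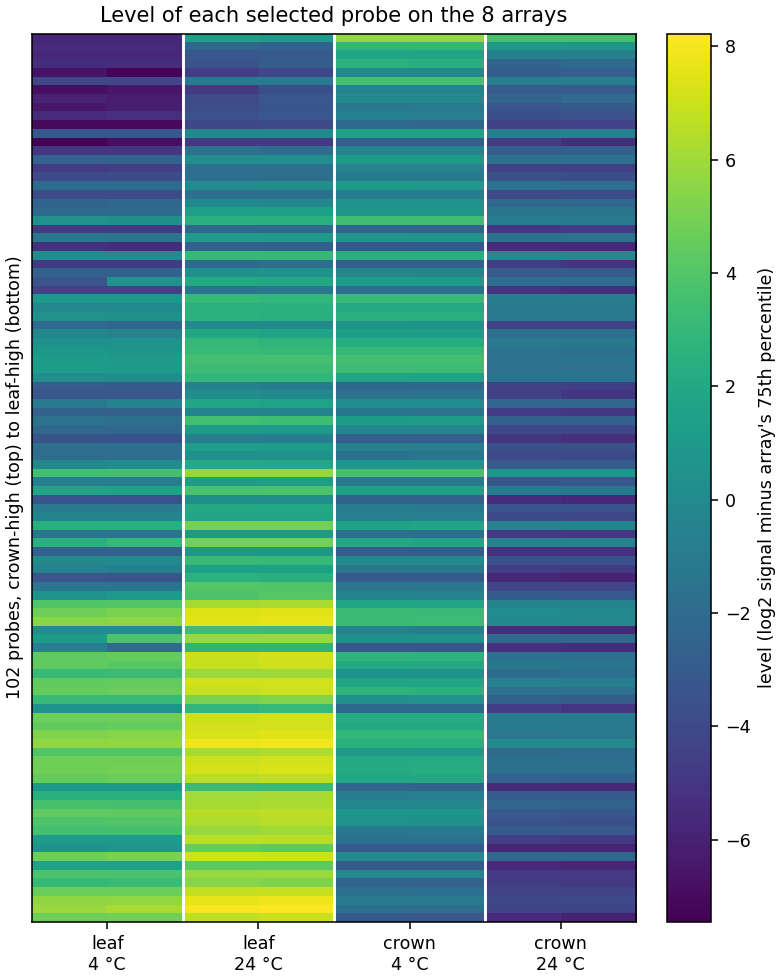
Level (colour, log2 of signal minus the 75th percentile of the array) of the 102 probes on the 8 arrays, with the arrays of a group side by side and probes ordered from crown-high at the top to leaf-high at the bottom. Warm leaf is the brightest column for 78 probes and cold crown for 24, and the choice lets no other group be brightest. The probes at the bottom keep a higher level in both leaf groups than in either crown group.

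The tissue difference, crown minus leaf averaged over both temperatures, was tested with limma over all 24596 probes. It is built from the same arrays and the same 4 group means as the 2 differences that chose the probes. Its array errors would be uncorrelated with theirs if all groups varied equally, which was not tested. Across probes the tissue difference went with each of those 2 differences, as the sets described further on show. The shares among the 102 are therefore a description beside those of all probes. A probe was called at a Benjamini-Hochberg adjusted p below 0.05 and at least 2-fold. Of the 102, 14 (13.7%) were higher in crown, 67 (65.7%) were higher in leaf and 21 were not called, against 25.2% of all probes called higher in crown and 23.3% called higher in leaf. The median tissue difference was -2.38 over the 102, with a range of -10.27 to 6.89, against 0.01 over all probes. At least 16-fold higher in leaf were 39 of the 102 (38.2%), against 841 of all probes (3.42%). With arrays scaled to the E1A spike-in controls, which moves the median tissue difference of all probes to 1.39, 27 of the 102 were called higher in crown and 51 higher in leaf, and 22 were at least 16-fold higher in leaf, against 1.39% of all probes. The split over all probes moves with the scaling too: of those called, 51.9% were higher in crown by the 75th percentile, 42.6% when each array was set to its median and 88.0% with the spike-ins.

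The 5 probes with the most negative tissue difference were higher in leaf than in crown on every array. whsh_allContig356 had -3.02 and -3.18 in crown at 4 °C and -5.49 and -6.01 in crown at 24 °C, against 4.75 and 4.87 in leaf at 4 °C and 6.75 and 6.98 in leaf at 24 °C. Its tissue difference was -10.27 (SE 0.123, limma adjusted p = 9.5e-10), 1233-fold in favour of leaf. wheat0130Contig15705 had -1.70 and -1.76 in crown at 4 °C and -4.29 and -4.27 in crown at 24 °C, against 5.89 and 6.18 in leaf at 4 °C and 8.08 and 8.23 in leaf at 24 °C, a difference of -10.10 (SE 0.0717, limma adjusted p = 1.59e-10). In these probes the gap between tissues was far wider than the cold differences within a tissue, which were between 4-fold and 8-fold. wheat0130Contig57 (-9.22), whsh_allContig1219 (-8.73) and wheat0130Contig11842 (-7.82) followed, with adjusted p between 9.58e-11 and 2.51e-10 in the limma fit. In the cold the crown minus leaf difference of the 5 was between -7.91 and -5.63. Over the alternative settings the tissue difference of whsh_allContig356 lay between -10.63 and -8.89, that of wheat0130Contig15705 between -10.33 and -8.72, and those of the other 3 between -9.46 and -6.44, so the folds moved by over 2 times while every call held.

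At the other end were 5 probes with a higher signal in crown. wheat0130Contig16112, described above, had the highest tissue difference at 6.89 (SE 0.0709, limma adjusted p = 5.06e-10). wheat0130Contig15831 had 2.87 and 2.96 in crown at 4 °C and 0.97 and 0.85 in crown at 24 °C, against -5.52 and -5.49 in leaf at 4 °C and -2.29 and -2.61 in leaf at 24 °C, a difference of 5.89 (SE 0.0753, limma adjusted p = 1.25e-09). MUG011G01R990501 had 1.81 and 1.73 in crown at 4 °C and -0.57 and -0.62 in crown at 24 °C, against -5.71 and -5.68 in leaf at 4 °C and -3.17 and -2.98 in leaf at 24 °C, a difference of 4.97 (SE 0.0516, limma adjusted p = 5.28e-10). All 5 probes were higher on every crown array than on any leaf array. wheat0130Contig10934 had a tissue difference of 4.42 (SE 0.143, limma adjusted p = 1.08e-07). It had 2.58 and 2.47 in crown at 4 °C, against -2.38 and -2.02 in crown at 24 °C, and -5.39 and -5.39 in leaf at 4 °C, against -3.42 and -2.83 in leaf at 24 °C. whe23k14 had a tissue difference of 4.32 (SE 0.158, limma adjusted p = 2.11e-07), with leaf levels of -6.70 and -7.29 at 4 °C, against -4.60 and -4.12 at 24 °C, near the bottom of the range. Over the alternative settings wheat0130Contig16112 lay between 6.19 and 8.27 and whe23k14 between 2.79 and 5.69, with the lowest values from normexp and the highest from the spike-ins. The lowest level counted as well above background was -7.89 and -8.19 on the cold leaf arrays, against -6.35 and -6.04 on the warm leaf arrays. Of the 102 probes, 6 had a level below -6.04, the highest of these limits over the 8 arrays.

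**Figure D4:**
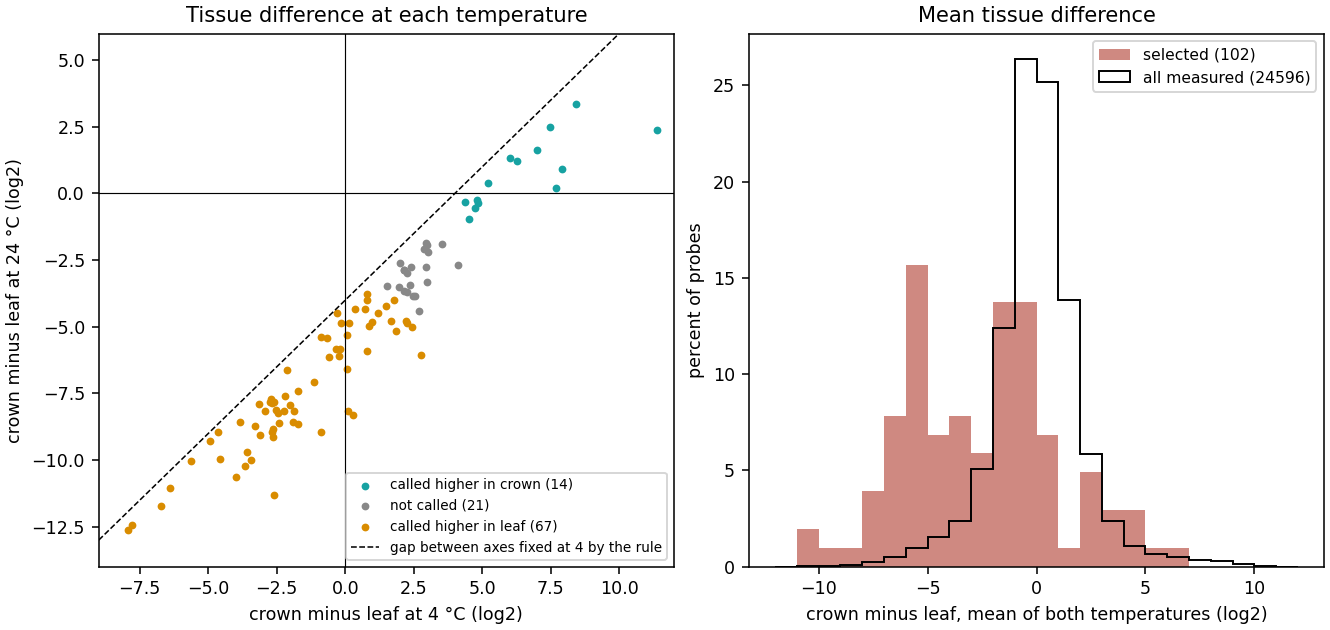
Left, crown minus leaf difference at 4 °C (x axis, log2) against that at 24 °C (y axis, log2) for the 102 probes, coloured by the limma call on their mean. The dashed line marks the gap of 4 that the choice fixes between the axes. Right, share of probes (y axis, percent) by mean tissue difference (x axis, log2) for the 102 and for all 24596, with medians of -2.38 and 0.01.

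Set beside probes that met only 1 threshold, the 102 were nearer to those of the crown than to those of the leaf. Of 718 probes past the crown threshold alone, 16.2% were called higher in crown and 60.0% higher in leaf, with a median tissue difference of -1.62. Of 1556 past the leaf threshold alone, 45.9% were called higher in crown and 17.9% higher in leaf, with a median of 0.88. Of the 58 with the mirror pattern, 17.2% were called higher in crown and 43.1% higher in leaf. The share at least 16-fold higher in leaf was 38.2% in the 102, against 22.4% past the crown threshold alone, 5.72% past the leaf threshold alone and 6.90% with the mirror pattern. These are descriptions of sets chosen on the same arrays, with no test between them. Of 802 other probes at least 16-fold higher in leaf, 362 (45.1%) were called higher in crown at 4 °C and 114 lower, against 17.1% and 15.5% of all probes. Their median difference of 4 °C minus 24 °C was 0.82 in crown and -0.53 in leaf. The part of this in the pattern of the 102 was not tested.

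Ordered by mean signal over the 8 arrays, which reflects hybridisation as well as RNA and so ranks no transcript, the first 5 probes were wheat0130Contig7737, whsh_allContig1239, whsh_allContig736, whsh_allContig1249 and wheat0130Contig14781. wheat0130Contig7737 had 5.44 and 5.49 in leaf at 4 °C, against 7.58 and 7.63 in leaf at 24 °C, and 3.25 and 3.29 in crown at 4 °C, against 0.07 and -0.04 in crown at 24 °C. whsh_allContig1249 had 5.29 and 5.41 in leaf at 4 °C, against 7.26 and 7.45 in leaf at 24 °C, and 2.93 and 2.91 in crown at 4 °C, against -1.25 and -1.25 in crown at 24 °C. The order in both was the most common one, with both leaf groups above both crown groups. wheat0130Contig14781 differed: it had 3.50 and 3.58 in leaf at 4 °C, against 5.77 and 5.76 in leaf at 24 °C, and 3.64 and 3.68 in crown at 4 °C, against 0.91 and 0.89 in crown at 24 °C. Its cold tissues stood close to each other and its warm tissues far apart. No spot of the 102 probes was saturated on any array.

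Probe names fall into families by their opening letters, which the files do not explain. Of the 102, 38 were named wheat0130Contig, 33 whsh_allContig, 11 as MUGEST2003 contigs, 9 as single clones starting wh or rwh, 7 whfl_allContig and 4 as MUG clones. The whsh_allContig probes made up 32.4% of the 102, against 3.25% of the probes well above background: 33 of 799 such probes (4.13%) met both thresholds, against 0.415% of all. In the other named families the share was between 0.132% (single clones) and 0.739% (whfl_allContig), and among 189 probes with names of other kinds it was 0. The same family also met each threshold alone more often, with 14.4% past the leaf threshold, against 6.74% of all, and 15.5% past the crown threshold, against 3.33% of all. Among probes past the crown threshold alone 12.7% were whsh_allContig, and among those past the leaf threshold alone 5.27%.

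Within their probes, the 33 whsh_allContig members leaned further to leaf than the other 69. Their median tissue difference was -5.19, against -1.59 for the others. Of the 33, 1 (whsh_allContig755) was called higher in crown by limma and 25 higher in leaf. Of the other 69, 13 were called higher in crown and 42 higher in leaf. The whsh_allContig family as a whole had a median tissue difference of -1.42 over its 799 measured probes, against 0.01 over all probes. No test was made between the families.

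No contig or clone name supplied more than 1 of the 102 probes. Separate names do not show separate transcripts. For 25 of the 102, every group mean lay within 0.5 of that of another of the 102. The closest were wheat0130Contig13992 and whsh_allContig1247, with a largest gap of 0.154. Whether such probes read the same transcript was not tested, and each was counted separately. For 5 of the 102 the array carries another probe whose name differs by a leading r or a trailing serial, and which the choice did not use. They were measured in the same RNA samples on the same arrays. The files do not state what the prefix and serial mean, so whether such a probe reads the same strand or stretch is not known. Of these 5 probes, 3 were well above background on all arrays. By limma all 3 were lower in cold leaf (background 20.3% of all probes), 1 was higher in cold crown by at least 2-fold (background 17.1%), and all 3 had a crown change above the leaf change (background 25.8%). The 1 called lower in cold leaf and higher in cold crown compares with 3.10% of all probes called so.

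rwhfl2n10, which shares a clone name with whfl2n10, fell and rose as its partner did. It had -0.50 and -0.53 in leaf at 4 °C, against 2.32 and 2.28 in leaf at 24 °C, a change of -2.82 (SE 0.0512, limma adjusted p = 9.58e-08). It had 3.83 and 3.77 in crown at 4 °C, against 2.51 and 2.45 in crown at 24 °C, a change of 1.32 (limma adjusted p = 1.01e-06). The crown change exceeded the leaf change by 4.13 (SE 0.0724, limma adjusted p = 6.13e-08). The levels of whfl2n10 itself were -4.91 and -4.91 in leaf at 4 °C, against -1.61 and -1.80 in leaf at 24 °C, and -0.35 and -0.40 in crown at 4 °C, against -2.67 and -2.62 in crown at 24 °C.

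whf10c21, the partner of rwhf10c21, had -3.90 and -3.97 in leaf at 4 °C, against -1.78 and -1.76 in leaf at 24 °C, a change of -2.16 (SE 0.102, limma adjusted p = 2.93e-06). Its crown levels were -2.81 and -2.92 at 4 °C, against -3.32 and -3.62 at 24 °C, a difference of 0.60 (limma adjusted p = 0.00138) that was less than 2-fold. In rwhf10c21 the same crown difference was 2.10, larger than in its partner. whsl23j01, the partner of rwhsl23j01, had -2.63 and -2.65 in leaf at 4 °C, against -0.04 and -0.12 in leaf at 24 °C, a change of -2.56 (SE 0.296, limma adjusted p = 0.0002). Its crown levels were -3.13 and -3.34 at 4 °C, against -4.59 and -3.57 at 24 °C, a difference of 0.85 (limma adjusted p = 0.0337) that rests on 2 warm crown arrays about 1 log2 unit apart. Without crown at 24 °C replicate 2 it was 1.36 and was called. With normexp background correction the crown differences were 0.21 for whf10c21 (limma adjusted p = 0.082) and 0.28 for whsl23j01 (limma adjusted p = 0.172), so neither met the p threshold there.

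Neither whsh_allContig1260 nor whsh_allContig1271 was well above background on either array of crown at 24 °C, so they were left out of the limma fit used above and have no fold there. whsh_allContig1260 had -7.24 and -7.07 in leaf at 4 °C, against -5.94 and -5.20 in leaf at 24 °C, and whsh_allContig1271 had -7.53 and -7.17, against -5.21 and -5.43. In both, each cold leaf array lay below each warm leaf array. These levels were near the lowest counted as well above background, -7.89 and -8.19 on the cold leaf arrays, against -6.35 and -6.04 on the warm. A dim probe above background on all leaf arrays can thus read lower in cold leaf, so this order is a description only. Of their partners, whsh_allContig1260_2 had 4.40 and 4.35 in leaf at 4 °C, against 6.55 and 6.66 in leaf at 24 °C, and 0.83 and 0.79 in crown at 4 °C, against -2.97 and -3.22 in crown at 24 °C. whsh_allContig1271_2 had 3.84 and 3.73 in leaf at 4 °C, against 5.78 and 5.88 in leaf at 24 °C, and -0.20 and -0.21 in crown at 4 °C, against -4.76 and -4.82 in crown at 24 °C.

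**Figure D5:**
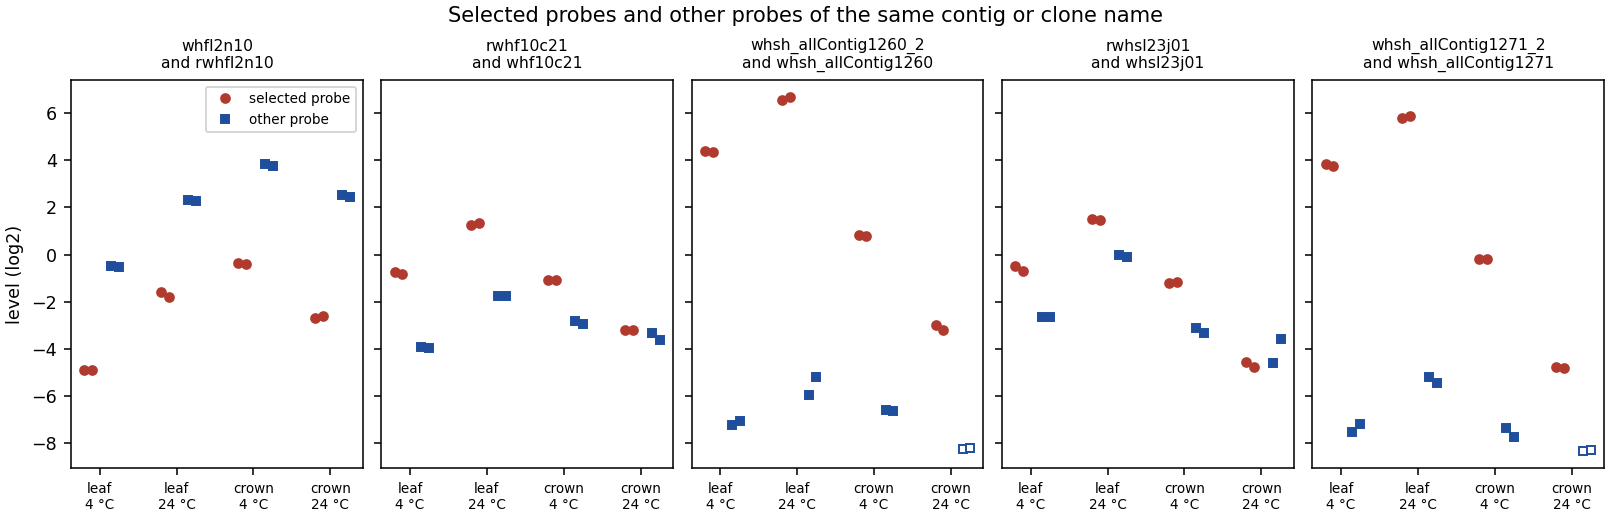
Level (log2 of signal minus the 75th percentile of the array, y axis) of 5 chosen probes (red circles) and of the other probe of the same contig or clone name (blue squares) in the 4 groups, 2 arrays each. Open squares were not well above background. The 3 measured partners were lower in cold leaf, and rwhfl2n10 alone was also called higher in cold crown.

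Replicate arrays of the 102 probes lay close together. The median gap between the 2 arrays of a group was 0.0763 in leaf at 4 °C, against 0.100 in leaf at 24 °C, and 0.0430 in crown at 4 °C, against 0.0722 in crown at 24 °C. Over all probes it was between 0.0591 and 0.0858. In 4 probes a gap exceeded 1. whsh_allContig849 had -3.31 and 0.53 in leaf at 4 °C, against 2.15 and 2.00 in leaf at 24 °C, and its leaf difference of -3.47 became -1.55 without the lower of the cold arrays. whsh_allContig1224 had 1.07 and 3.87 in leaf at 4 °C, against 5.82 and 5.88 in leaf at 24 °C. The array at 1.07 carries the only spot of the 102 probes marked as an outlier by the scanner software, and without it the leaf difference of -3.38 became -1.98, just short of the threshold. wheat0130Contig3157 had -6.82 and -6.52 in leaf at 4 °C, against -4.76 and -3.67 in leaf at 24 °C, a difference of -2.45 that became -1.90 without leaf at 24 °C replicate 2. MUGEST2003_23lib_Contig3205_120 had -0.75 and -1.96 in leaf at 4 °C and kept its leaf difference of -4.16 past the threshold without either array.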

How the data were processed

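Per the file headers, Agilent Feature Extraction made the deposited intensity values and the 0 or 1 flags of each spot (of kind other), in version 10.5.1.1 at 4 °C and, at 24 °C, 10.7.3.1 for crown and 9.5.3.1 for leaf. Version 9.5 is the one in the submitters' processing notes. The authors' table of intensity holds each array's processed signal times a factor (SD of the log2 ratio at most 0.00198), a factor whose origin is not given in the sources used here.

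From the processed signal, log2 was taken and the array's 75th percentile over 37826 non-control probes subtracted, with 1417 control spots left out. Group means over 8 arrays were fitted with limma 3.58.1 in R 4.3.3 (4 residual and 2.43 prior degrees of freedom), and p-values were adjusted by Benjamini-Hochberg over 24596 probes. The design text speaks of independent experiments without saying what was repeated, so p-values measure the spread between these arrays. An exact permutation test of 2 arrays against 2 has a smallest p of 0.333 and was not used. The calls were tested on simulated data. Figures were drawn with matplotlib 3.10.9.

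The probes, lists and tests were chosen with earlier results of these data known. Named were the 10 widest gaps between crown and leaf differences, the 3 probes on each side of each threshold, the 5 highest and 5 lowest tissue differences, the 5 brightest and the other probes of the same contigs. The probes named for wide replicate gaps, for differences of 8-fold in both tissues or for a rare order of the groups were picked after their values were seen.

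The arrays lay on 5 slides, scanned on 4 days with 2 scanners, of which 1 scanned leaf at 24 °C alone. No slide holds more than 1 group, and only leaf at 24 °C spans 2 slides, so the slide fitted as a random block (estimated correlation -0.714) checks little. The normexp correction was planned on the mean spot signal and run on the median, since no mean is in the files used here. The number of arrays, 2 per group, limits the precision of each value.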

Additional observations from a re-analysis of the deposited data

Results flagged for a closer look

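The crown and leaf changes of 3 probes differed from each other in the limma test of the difference itself, among the probes that share a contig or clone name with a chosen probe. The crown change minus the leaf change was 4.13 for rwhfl2n10, 2.76 for whf10c21 (limma adjusted p = 4.71e-06) and 3.40 for whsl23j01 (limma adjusted p = 0.000297). Of all probes, 25.8% were called in this direction.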

How the results depend on the processing

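The number of probes that meet both thresholds was 67 with scaling to the median (67 of the 102 among them), 52 with normexp background correction (51 of the 102) and 207 with no filter on dim probes (all 102), and between 96 and 108 without 1 array in turn (92 to 102 shared). It was within 1.5 times of 102 under the other settings. Quantile normalization only just met that limit, with 68 probes (64 of the 102 among them). With spike-in scaling 130 were found, and only 50 of the 102 remained among them. Of the 102, the leaf threshold was met by 50 with spike-in scaling, 65 with quantile normalization, 71 with scaling to the median and 77 with normexp, and the crown threshold by 66 with normexp and by 98 to 102 under the others of these. With spike-in scaling 15071 of all probes were called higher in crown and 2060 higher in leaf, against 6186 and 5724, and 27 of the 102 were called higher in crown, against 14. A filter on both arrays of 1 group gave 10195 of all probes higher in crown, and no fold limit gave 11161 higher in crown and 11087 higher in leaf. Without 1 array in turn, all probes gave 6150 to 6408 higher in crown and 5697 to 5821 higher in leaf, and the 102 gave 14 and 67 to 68. Of the other probes of the same contigs, 3 were higher in cold crown with spike-in scaling and with no fold limit, and the wider filter gave 5 lower in cold leaf, 2 higher in cold crown and 5 with a crown change above the leaf change, as it tests more probes. It adds whsh_allContig1260 and whsh_allContig1271, which were not well above background in crown at 24 °C. Their calls that involve crown thus rest on undetected signal there. Without 1 array in turn the other probes of the same contigs gave 3, 1 to 2 and 3. The count of 2 came without crown at 24 °C replicate 2. With replicate number as a block, 6188 and 5725 of all probes, 14 and 67 of the 102 and 3, 1 and 3 of the other probes were called, so the block changed no count of calls in the 102 or the other probes. Deviations of same-numbered arrays correlated at -0.0942 to 0.104. With 2 arrays per group this cannot show whether arrays of the same number were paired. The causes of the other shifts were not tested. With all signals raised to 1 common floor, 99 of the 102 met both thresholds. The smallest leaf difference was then -1.26, against -2.01, so the floor shortened some folds of dim probes.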

Other observations

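The chosen whsh_allContig probes carried higher contig numbers than the rest of their family, with a median number of 959 in 31 chosen probes against 639 in 765 other probes. Over all 796 numbered probes of the family the number also went with the level in leaf at 24 °C (Spearman rho 0.345), a description across probes of the same arrays. Levels compared between probes reflect hybridisation as well as RNA, so this ranks no transcript. The files do not state how contigs were numbered.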
